A study of Mus musculus with 40 samples.

Results

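The macrophage C-type lectins described here were 9 genes of the 54307 in the table, namely Clec4a1, Clec4a2, Clec4a3, Clec4n, Clec4d, Clec5a, Clec7a, Clec10a and Clec12a. They were chosen by name as C-type lectin receptors of macrophages and their relatives, by a rule that uses no measured value but was made with earlier results of these data known. Transcripts were counted in the choroid and the retina of 20 C57BL/6J mice, 5 per group, which gave 40 libraries, 20 per tissue. Tgfbr2ΔEC mice carried Tgfbr2 fl/fl and Cdh5-CreERT2, a tamoxifen-activated recombinase driven by an endothelial promoter, so that the TGF-β receptor gene was deleted in endothelial cells. Control mice were littermates with Tgfbr2 fl/fl and no Cre. Of each genotype, 5 mice were given a diet with PLX5622 (+ PLX), an inhibitor of the CSF1 receptor on which most mononuclear phagocytes (MPs) depend, and 5 were not (– PLX). Mice of all 4 groups, both sexes included, received tamoxifen eye drops from the age of 6 to 7 weeks and 6 laser burns per eye, and tissue was taken on day 3 after the laser, the choroid being its central portion with the lesions. The sex of each mouse was not used here, except as a score from marker genes in alternative fits.

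C-type lectin receptors are membrane proteins that bind sugars or other ligands on microbes and damaged cells. Activating members, such as Clec7a (Dectin-1, a receptor for fungal β-glucan), Clec4n (Dectin-2, which binds mannose-rich glycans), Clec4d (MCL, a partner of Mincle and Dectin-2) and Clec5a (MDL-1, which pairs with the adaptor Tyrobp), signal through Syk and Card9 to cytokine genes. Inhibitory members, such as Clec4a2 (DCIR) and Clec12a (MICL), recruit phosphatases that restrain myeloid cells. Clec4a1 and Clec4a3 are close relatives of Clec4a2, and Clec10a (MGL1) binds galactose-type sugars and is known as a marker of resident and alternatively activated macrophages and of some dendritic cells.

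All 9 are protein-coding genes, and 8 lie on chromosome 6. On GRCm39, Clec4a1 (chr6:122896122-122911578), Clec4a3 (chr6:122929380-122948807), Clec4a2 (chr6:123083387-123120958), Clec4n (chr6:123206802-123223980) and Clec4d (chr6:123239070-123252230) followed each other on the plus strand within 356 kb. Clec12a (chr6:129319654-129342266, plus strand) and Clec7a (chr6:129438554-129449742, minus strand) lay 96.3 kb apart. Clec5a (chr6:40551234-40562773) stood alone on the minus strand, and Clec10a lay on chromosome 11 (chr11:70047023-70061660, plus strand). Of the 50-base windows of each longest coding transcript, 9.97% for Clec10a were also found in a transcript of another gene, which was its neighbour Mgl2. The share was 8.46% for Clec4a2, 2.91% for Clec4a1 and 0.922% for Clec4n, and no window was shared for the other 5 genes. Levels of Clec10a and Clec4a2 in particular may hold reads of their relatives.

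Clec7a and Clec12a are neighbours with different changes in the measurements that follow, and were picked after their values were seen. The 250 bases before their RefSeq starts (GRCm38.p6) are shown here. Capitals mark the letters GAGGAA, as in sites of the myeloid factor PU.1, and TGTGGT, as in sites of RUNX factors, on either strand.
Clec7a, chr6:129472780-129473029, minus strand: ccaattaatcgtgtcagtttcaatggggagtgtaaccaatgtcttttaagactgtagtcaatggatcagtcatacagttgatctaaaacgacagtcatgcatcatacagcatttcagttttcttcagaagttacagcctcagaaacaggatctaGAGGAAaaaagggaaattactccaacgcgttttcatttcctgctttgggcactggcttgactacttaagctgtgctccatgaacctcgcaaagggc
Clec12a, chr6:129349994-129350243, plus strand: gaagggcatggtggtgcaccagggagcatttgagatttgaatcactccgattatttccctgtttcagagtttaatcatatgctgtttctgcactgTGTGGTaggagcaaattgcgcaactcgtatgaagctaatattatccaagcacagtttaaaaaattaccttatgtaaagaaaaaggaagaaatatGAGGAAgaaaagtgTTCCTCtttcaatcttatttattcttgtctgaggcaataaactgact
Of the 9 genes, 7 were in the RefSeq promoter table, which runs from 250 bases before to 50 bases after a start. GAGGAA stood in 5 of these 7 windows, against 28.3% of 32851 promoters of the same length, and TGTGGT stood in 4 of 7, against 16.8%. GAGGAA occurred in the windows of Clec4a1, Clec4d, Clec5a, Clec7a and Clec12a, and TGTGGT in those of Clec4a1, Clec4a3, Clec5a and Clec12a. No match of one motif overlapped a match of the other. A match of letters describes the sequence and does not show that a factor binds it.

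Values were normalized counts, that is, estimated counts divided by a factor for each library that the authors computed over both tissues together. They summed to between 24718469 and 25956180 per choroid and between 22256892 and 24507335 per retina, and 1 read was worth about 0.905 to 1.19 normalized counts in the choroid and 0.745 to 1.125 in the retina. Tgfbr2 itself did not separate the genotypes in whole tissue. Its normalized count without PLX was 9836 to 10849 in control choroids and 8729 to 11304 in Tgfbr2ΔEC choroids, and the adjusted p of the limma test was 0.925. In the retina without PLX it was 164 to 293 in control mice and 107 to 285 in Tgfbr2ΔEC mice (adjusted p = 0.985), so these libraries did not show the deletion. The tissue labels were checked against marker genes, and all 10 neural retina markers were lower and all 8 retinal pigment epithelium (RPE) markers higher in the choroid. MP markers followed the diet labels. All 12 were lower with PLX in both tissues, with a median log2 difference of -2.31 in the choroid and -5.83 in the retina.

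PLX5622 lowered all 9 lectins in the choroid. Genes were called at an adjusted p of at most 0.05, from limma on log2(normalized count + 1), with the Benjamini-Hochberg adjustment over 23619 genes. Of all these genes 5.06% were called lower and 7.13% in either direction. The median log2 difference of the lectins was -2.17, against 0.00 for all genes, and ranged from -3.14 for Clec10a to -0.86 for Clec7a. In 7 of the 9 genes every choroid with PLX lay below every choroid without it, which was the case for 1.75% of all genes. The exceptions were Clec4d and Clec7a. Fewer cells of a type and less RNA per cell cannot be told apart in whole tissue. P-values measure the spread between these mice.

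**Figure D1:**
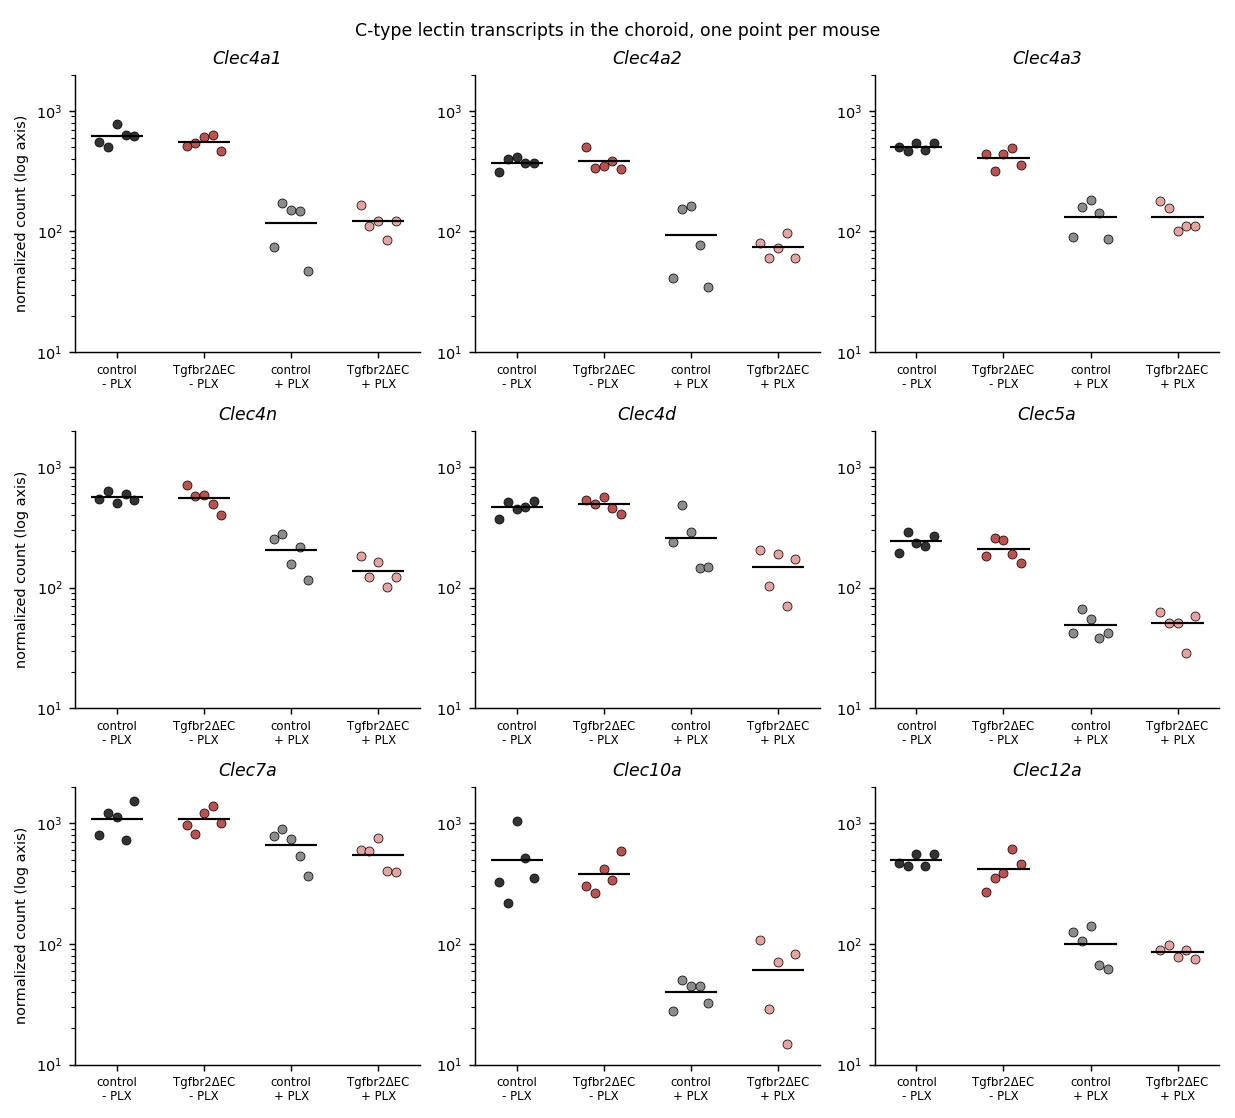
Normalized counts of the 9 lectins in the choroid on a log axis, with 1 point per mouse, 5 mice per group and a bar at the group mean. Clec10a dropped from between 219 and 1046 to between 14.8 and 108 with PLX, whereas the ranges of Clec7a, taken over both genotypes, overlapped.

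Among the activating receptors, Clec7a changed least. Its normalized counts were 802, 1224, 1127, 721 and 1538 in control – PLX choroids and 958, 818, 1223, 1399.6 and 1004 in Tgfbr2ΔEC – PLX choroids. With PLX they were 783, 902, 737, 536 and 368 in control mice and 599.8, 591, 748, 405 and 392 in Tgfbr2ΔEC mice. Taken over both genotypes, the ranges with and without PLX overlapped. In Tgfbr2ΔEC mice alone, the highest choroid with PLX, at 748, lay below the lowest without it, at 818. The log2 difference was -0.86 ± 0.17 (SE, 10 mice against 10, limma adjusted p = 0.00261), a 1.81-fold lower level, and 56.0% of the mean remained.

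Clec4d also kept part of its level. It stood at 368, 518, 453, 466 and 527 normalized counts in control – PLX choroids and at 538, 498, 568, 461 and 407 in Tgfbr2ΔEC – PLX choroids. With PLX it was 237, 481, 289.8, 145 and 148 in control mice and 207, 102, 190.4, 71.0 and 174 in Tgfbr2ΔEC mice. Mouse 12 of the control + PLX group, at 481, was the one choroid that reached into the range of the choroids without PLX. The log2 difference was -1.40 ± 0.21 (SE, limma adjusted p = 8.82e-05), and 42.6% of the mean remained. Clec4n, the gene next to it, was 401 to 711 without PLX and 101 to 280.5 with PLX, with no overlap and 30.8% remaining (log2 difference -1.76 ± 0.15, adjusted p = 3.12e-08). Clec5a fell from 159 to 292 down to 28.8 to 66.2, and 22.1% of its mean remained (log2 difference -2.17 ± 0.15, adjusted p = 1.76e-09).

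Of the inhibitory receptors, Clec12a, the neighbour of Clec7a, stood at 473, 445, 554, 441 and 553 in control – PLX choroids and 269.8, 354, 389.7, 614 and 462 in Tgfbr2ΔEC – PLX choroids. With PLX it was 126, 106, 139.9, 66.8 and 61.4 in control mice and 89.4, 97.7, 78.5, 88.5 and 75.3 in Tgfbr2ΔEC mice. The highest of these, 139.9, lay well below the lowest choroid without PLX, 269.8. The log2 difference was -2.29 ± 0.16 (SE, limma adjusted p = 1.27e-09), a 4.89-fold lower level. Clec4a2 was 314 to 503 in choroids without PLX and 34.7 to 164 in those with it (log2 difference -2.29 ± 0.23, adjusted p = 3.38e-07). Of its relatives, Clec4a1 fell from 468 to 771 down to 47.5 to 172 (-2.35 ± 0.19, adjusted p = 1.35e-08), and Clec4a3 from 317 to 539.6 down to 86.2 to 183 (-1.82 ± 0.14, adjusted p = 1.03e-08). The mean that remained was 22.4% for Clec4a2, 20.6% for Clec4a1 and 28.9% for Clec4a3.

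Clec10a had the largest log2 difference of the 9 genes in the choroid. Its normalized counts were 327, 219, 1046, 519 and 349.9 in control – PLX mice and 304, 265, 417, 341 and 584 in Tgfbr2ΔEC – PLX mice. With PLX they were 27.9, 50.6, 44.5, 44.9 and 32.3 in control mice and 108, 29, 70.2, 14.8 and 82.7 in Tgfbr2ΔEC mice. Mouse 3 stood far above the other choroids without PLX, yet the lowest of these was still above all choroids with PLX. The log2 difference was -3.14 ± 0.32 (SE, limma adjusted p = 3.6e-07), an 8.84-fold lower level, and 11.5% of the mean remained.

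**Figure D2:**
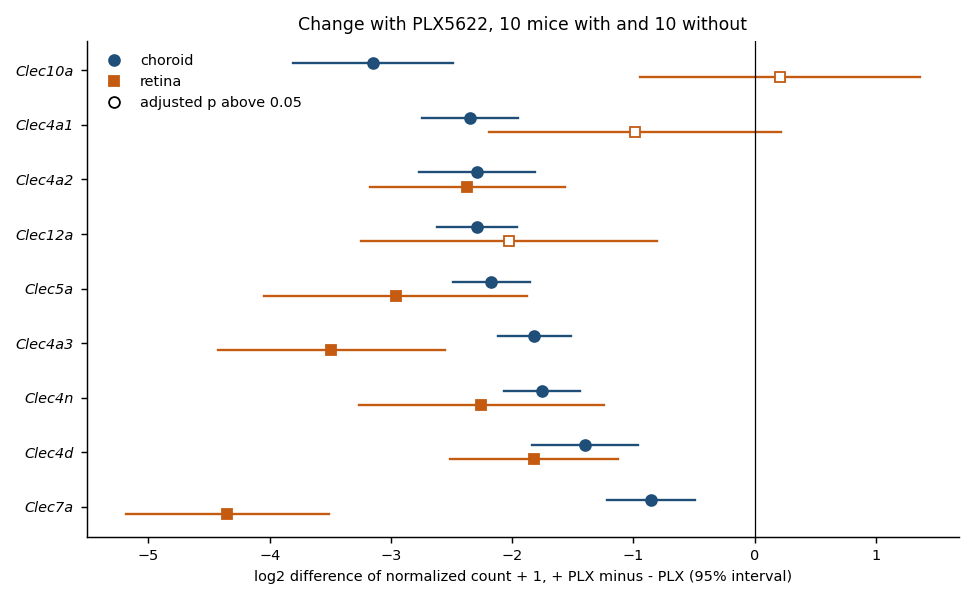
Log2 difference of normalized count + 1 between 10 mice with and 10 without PLX for each lectin, in the choroid (circles) and the retina (squares), with 95% intervals. Open symbols have an adjusted p above 0.05. The 2 tissues are farthest apart for Clec7a, at -0.86 and -4.35, and for Clec10a, at -3.14 and 0.21.

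Within genotypes, 7 of 9 lectins were called lower in control choroids (background 3.15% lower) and 9 of 9 in Tgfbr2ΔEC choroids (background 3.5% lower). Clec4d (log2 difference -0.98, adjusted p = 0.0801) and Clec7a (-0.72, adjusted p = 0.142) missed the threshold in control mice. Without mouse 12, Clec4d was called in control mice (-1.24, adjusted p = 0.00823). Clec7a in Tgfbr2ΔEC mice was -0.999 with an adjusted p of 0.0226, and lost its call without mouse 8, 9, 19 or 20 (adjusted p = 0.0592, 0.075, 0.0688 and 0.0746) and with sex and neural retina scores as covariates (-1.14, adjusted p = 0.0507). The summed neural retina markers moved with this comparison, at 48572 to 137605 in Tgfbr2ΔEC choroids without PLX and 8208 to 22163 with PLX, and 1 of these 10 markers was called lower (median -2.15). With the neural retina score alone as a covariate all 9 lectins were called.

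The unequal loss changed the make-up of the lectin transcripts. Per kb of exon, the order of mean levels in choroids without PLX was Clec7a (410.0), Clec4n (392.5), Clec4d (299), Clec4a1 (219), Clec10a (151), Clec4a3 (134) and Clec4a2 (129), followed by Clec12a (77.3) and Clec5a (50.5). Neighbours in this order overlapped except Clec4a2 and Clec12a. The order depends on the length used. Exons covered 2638 bases in Clec7a and 5892 in Clec12a, whereas their longest coding transcripts had 707 and 2502 bases. Levels per kb of transcript were not computed. With PLX the order of levels per kb was Clec7a (229.7), Clec4d (127), Clec4n (121), Clec4a1 (45.0), Clec4a3 (38.7), Clec4a2 (28.8), Clec10a (17.4), Clec12a (15.8) and Clec5a (11.1). Here the ranges of Clec4n and Clec4a1 were apart, and all other neighbours overlapped. Clec7a, Clec4n and Clec4d, all activating receptors, thus had the highest means per kb on both diets.

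Clec7a made up 21.9% ± 4.11 (SD, n = 10, 15.2 to 28.1%) of the summed level per kb of the 9 genes without PLX and 36.4% ± 4.59 (29.8 to 43.1%) with PLX, and the groups did not overlap. The share of Clec10a was 3.96 to 16.7% without PLX and 1.3 to 5.73% with PLX. The mean share of Clec4n was 21.2% and 19.1%. All these shares, like the order of levels, depend on the exon lengths used. Within a mouse, the ratio of the normalized counts of Clec7a and Clec12a was 1.64 to 3.55 (median 2.3) without PLX and 4.57 to 9.54 (median 6.13) with PLX. This pair was picked after its values were seen, and the ratios are given as a description.

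**Figure D3:**
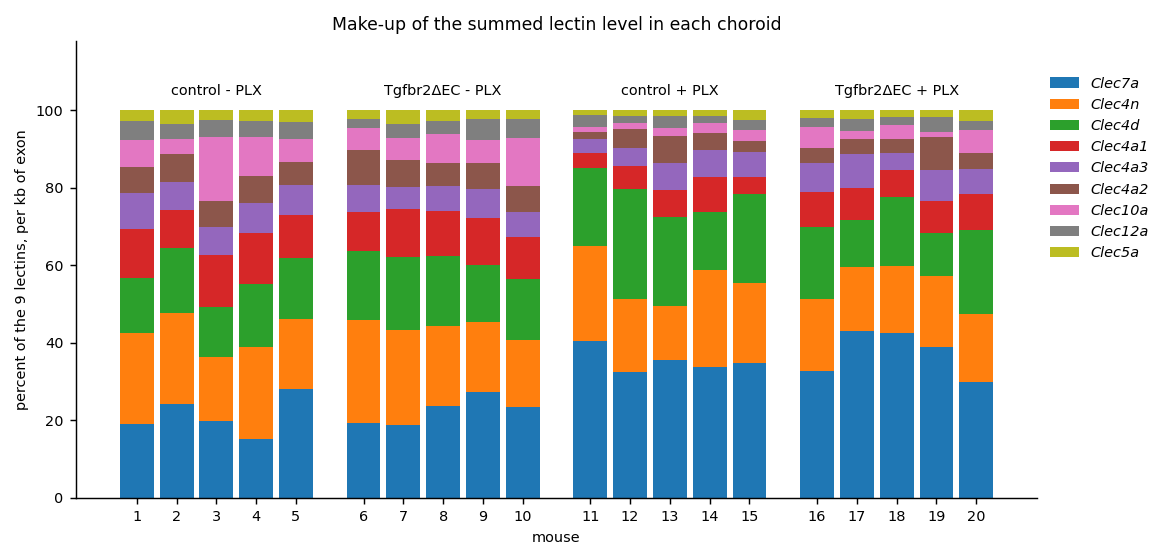
Share of each lectin in the summed level per kb of exon of the 9 genes, in percent, with 1 bar per choroid and mice numbered 1 to 20. The Clec7a share lies between 15.2 and 28.1% in the 10 mice without PLX and between 29.8 and 43.1% in the 10 mice with PLX.

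Deletion of Tgfbr2 in endothelial cells changed no lectin at the threshold in the choroid. Without PLX the log2 difference between Tgfbr2ΔEC and control choroids ranged from -0.32 for Clec4a3 to 0.09 for Clec4d, with adjusted p from 0.722 upwards, and 0 of 9 had an unadjusted p under 0.05. Of all genes 0.00423% were called. The 95% interval was -0.49 to 0.54 for Clec7a, -0.75 to 0.18 for Clec12a and -1.14 to 0.73 for Clec10a. A change beyond these sizes lay outside the intervals, whereas changes within them remained possible. With PLX the difference ranged from -0.76 for Clec4d to 0.31 for Clec10a, again with 0 of 9 called against 0.00423% of all genes. Clec4d (unadjusted p = 0.0181) and Clec4n (-0.52, unadjusted p = 0.0228) had the smallest p, and both had an adjusted p of 1.0. The summed level of 10 neural retina markers was 48572 to 137605 in Tgfbr2ΔEC – PLX choroids and 4047 to 28004 in control – PLX choroids. Its part in the genotype comparison was not tested beyond a fit with that score as a covariate, in which 0 of 9 lectins were called as well. The effect of PLX did not differ between genotypes for any lectin at the threshold (0 of 9 and 0 of 23619 genes called by limma, while 1552 genes had an unadjusted p under 0.05). The difference of the effects ranged from -0.85 for Clec4d (95% interval -1.72 to 0.03) to 0.52 for Clec10a (-0.80 to 1.84).

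In the retina the lectins were scarce. The 9 normalized counts summed to 21.8 to 272 per retina without PLX and to 4.05 to 25 with PLX, against 3967 to 5644 and 937 to 2372 in the choroid. A value of 3 reads corresponded to 2.24 to 3.38 normalized counts in the retina, so many values rested on a few reads. PLX lowered 6 of the 9 genes, namely Clec7a, Clec4a3, Clec5a, Clec4a2, Clec4n and Clec4d, while 1.08% of the 23243 genes tested were called lower. The median log2 difference of the 9 genes was -2.26, against 0.00 for all genes. Every retina with PLX lay below every retina without it for Clec4a3 and Clec7a, as for 0.422% of all genes.

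**Figure D4:**
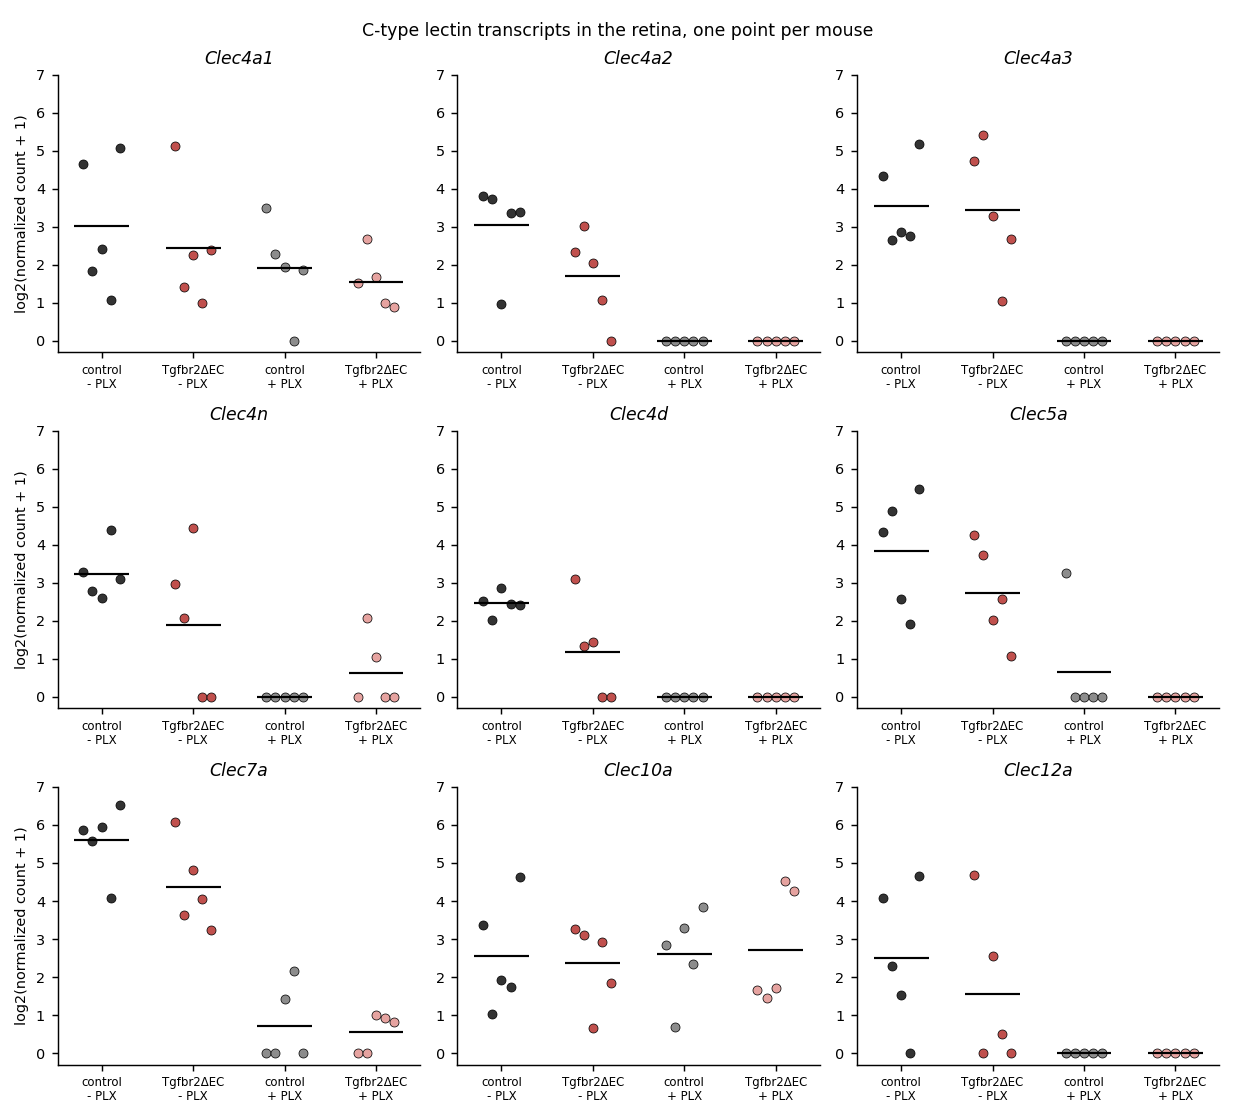
Log2(normalized count + 1) of the 9 lectins in the retina, with 1 point per mouse, 5 mice per group and a bar at the group mean. Clec7a fell in all groups with PLX, Clec4a2, Clec4a3, Clec4d and Clec12a are listed at 0 in all 10 retinas with PLX, and Clec10a was 0.581 to 24.0 normalized counts without PLX and 0.604 to 22.1 with it.

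Clec7a had the highest mean count of the 9 genes in retinas without PLX and the largest log2 difference, on a scale where the pseudocount limits the difference of genes with lower counts. It was 57.2, 46.9, 61.0, 16 and 91.0 in control – PLX retinas and 66.6, 11.3, 27.1, 15.5 and 8.46 in Tgfbr2ΔEC – PLX retinas. With PLX it was 0, 0, 1.69, 3.45 and 0 in control mice and 0, 0, 0.988, 0.909 and 0.762 in Tgfbr2ΔEC mice, a few reads at most. The log2 difference was -4.35 ± 0.40 (SE, limma adjusted p = 3.22e-07) on the scale of normalized count + 1, and its size depends on that pseudocount too.

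Clec4a3 was 19, 5.26, 6.27, 5.8 and 35.3 in control – PLX retinas and 25.4, 41.4, 8.72, 1.06 and 5.43 in Tgfbr2ΔEC – PLX retinas, and was listed at 0 in all 10 retinas with PLX (adjusted p = 3.82e-05). Clec4a2, Clec4d and Clec12a were also listed at 0 in these 10 retinas. The fitted log2 differences of these 4 genes, and of Clec5a and Clec4n with most retinas at 0, depend on the pseudocount, so no fold is given for them. Without PLX the highest retina was at 12.9 for Clec4a2 (adjusted p = 0.0008), 7.65 for Clec4d (adjusted p = 0.00315) and 24.9 for Clec12a. Clec12a missed the threshold (adjusted p = 0.168), with 3 retinas without PLX listed at 0 too. Clec5a was 1.13 to 43.4 without PLX and at 0 with PLX except for mouse 11 at 8.58 (adjusted p = 0.002). Clec4n was 0 to 20.7 without PLX and 0 to 3.19 with PLX (adjusted p = 0.0168). The retinas of Clec4n with and without PLX overlapped at 0.

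Clec4a1 and Clec10a were not called in the retina. Clec4a1 was 1.00 to 33.9 without PLX and 0 to 10.2 with PLX (log2 difference -0.99, 95% interval -2.19 to 0.21, adjusted p = 0.927). Clec10a was 9.31, 1.06, 2.81, 2.35 and 24.0 in control – PLX retinas and 8.67, 7.56, 0.581, 6.56 and 2.6 in Tgfbr2ΔEC – PLX retinas. With PLX it was 6.22, 0.604, 8.71, 4.1 and 13.3 in control mice and 2.16, 1.73, 2.26, 22.1 and 18.2 in Tgfbr2ΔEC mice, and the ranges overlapped. The log2 difference was 0.21 with a 95% interval of -0.94 to 1.36 (adjusted p = 1.0).

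The retinas of mice 1, 5 and 6 stood apart from the other retinas without PLX. Their lectin sums were 171, 272 and 196, and those of the other 7 were 21.8 to 110.0. The summed level of 10 neutrophil markers was 320, 227 and 157 in these retinas and 26 to 74 in the other 7, and the MP marker sum was 4377, 5024 and 4023 against 2047 to 3785. The monocyte marker sum was 2738, 2456 and 2257 against 969 to 1890, and the RPE marker sum was 5799, 7428 and 8480 against 10040 to 15103. Mouse 1 also had a perivascular macrophage marker sum of 2210, against 388 to 546 in the other 9 retinas without PLX. The part of these cell types in the retinal lectin values was not tested. With these 3 mice left out, 5 of 8 lectins tested were still called lower with PLX in the retina, and Clec4n was not (-2.13, adjusted p = 0.147).

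Within genotypes, 6 lectins were called lower with PLX in control retinas (background 0.727% lower) and 2, Clec4a3 and Clec7a, in Tgfbr2ΔEC retinas (background 0.512% lower). The control count was 3 with a pseudocount of 5 and 2 without mice 1, 5 and 6, and the Tgfbr2ΔEC count was 1 with a pseudocount of 5. The difference between these effects was called for 0 of 9 lectins and for 0 of all genes by limma, of which 567 had an unadjusted p under 0.05. Between genotypes without PLX, the log2 difference in the retina was from -1.36 for Clec4a2 to -0.13 for Clec4a3 and 0 of 9 were called, with no gene called among all tested (758 at an unadjusted p under 0.05). Clec4d (-1.28), Clec4a2 and Clec7a (-1.24) had unadjusted p of 0.0133, 0.0209 and 0.0402, each with an adjusted p of 0.985. With PLX the range was -0.65 to 0.62, and 0 of 9 were called.

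Both with and without PLX, all 9 lectins were higher in the choroid than in the retina of the same mice, while 37.7% of 24317 genes were higher in each of these comparisons. Without PLX every choroid lay above every retina for all 9 genes, as for 23.1% of all genes (22.3% with PLX). The log2 difference ran from 4.51 for Clec5a to 7.08 for Clec4d. With PLX it was 2.82 for Clec10a and larger for the other 8 genes, whose values with PLX depend on the pseudocount because many retinas were at or near 0, and the groups overlapped for Clec10a alone, whose choroid was above the retina in 9 of 10 mice.

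The effect of PLX differed between choroid and retina for 2 of the 9 genes, in opposite directions. The difference of the log2 effects, choroid minus retina, was 3.49 ± 0.44 (SE, limma adjusted p = 1.13e-06) for Clec7a and -3.35 ± 0.66 (SE, adjusted p = 0.00218) for Clec10a, and 1.37% of all genes were called. Clec7a thus kept more of its level in the choroid, whereas Clec10a fell in the choroid and was not called in the retina. In means, Clec7a was 27 times higher in the choroid than in the retina without PLX. With PLX 9 of 10 retinas were at or under 3 reads of Clec7a, and no ratio is given. For Clec10a the ratio of means was 66.8 without PLX and 6.36 with PLX, and 4 of 10 retinas were at or under 3 reads on each diet. Both calls held with the mouse as a replicate block (Clec7a adjusted p = 0.000113, Clec10a adjusted p = 0.0335) and without mice 1, 5 and 6. The other 7 genes ranged from -1.36 for Clec4a1 to 1.68 for Clec4a3 (adjusted p = 0.0724). Without mice 1, 5 and 6, Clec4a1 was -2.35 and was called (limma adjusted p = 0.00941). All 7 changed direction or call with another pseudocount, while Clec7a and Clec10a were called with each pseudocount. The size for Clec7a depended on it, at 4.14 with a pseudocount of 0.5 and 1.84 with 5, and Clec10a was -3.39 and -3.16. Retinal values were low for all 9 genes.

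**Figure D5:**
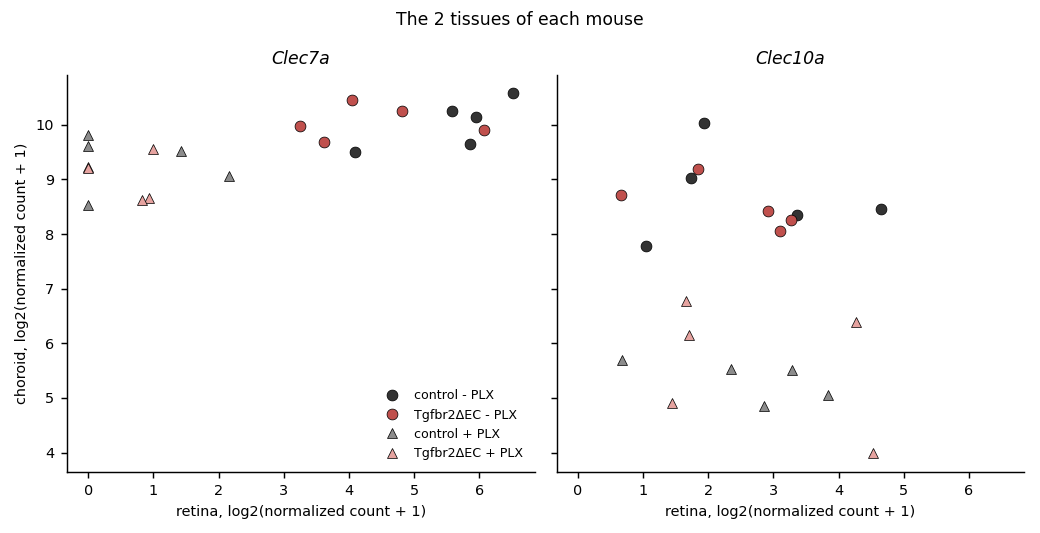
Log2(normalized count + 1) in the retina (x axis) and the choroid (y axis) of each of the 20 mice for Clec7a and Clec10a, with circles for mice without and triangles for mice with PLX. Mice with PLX are moved to the left for Clec7a, from 8.46 to 91.0 down to 0 to 3.45 normalized counts in the retina, and downwards for Clec10a.

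The difference of the PLX effects between choroid and retina was also taken for marker lists. For 10 of 12 MP markers the difference of the PLX effects was called higher, that is, more was lost in the retina (median 3.67, background 0.543% higher). For 5 of 8 perivascular macrophage markers it was called lower, with a larger log2 loss in the choroid (median -1.86, background 0.822% lower). Of these 8 markers 2 were at 0 in all 10 retinas with PLX, so the pseudocount limited the loss measured in the retina. Of 7 microglia markers 3 were called higher (median 1.745), and of 7 monocyte markers 0 were called. Of 9 dendritic cell markers 1 was called higher and 1 lower. In the choroid the perivascular macrophage markers were all called lower with PLX (8 of 8, median -3.31, background 5.06% lower), as were 4 of 7 microglia markers, 5 of 9 dendritic cell markers, 2 of 7 monocyte markers and 2 of 8 neutrophil markers, the last with a median of 0.06. Of 8 endothelial markers, 4 were called higher (background 2.07% higher). The summed neutrophil markers were 650 to 1264 in choroids without PLX and 384 to 775 with PLX, and 26 to 320 and 3 to 33 in retinas. The RPE marker sum in the retina was 5799 to 15103 without PLX and 6914 to 14018 with PLX. The part of these cell types in the lectin values was not tested.

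Of 37 other C-type lectin receptors, 34 were tested in the choroid, of which 13 were called lower with PLX (background 5.06% lower), 1 was called higher (background 2.07%) and 20 were not called. The lower ones included Mrc1, the macrophage mannose receptor (log2 difference -4.14 ± 0.19, adjusted p = 6.76e-12), Mgl2, the neighbour and paralog of Clec10a (-2.78, adjusted p = 1.62e-08), and the lectins Cd209f (-6.06, adjusted p = 1.23e-09) and Cd209g (-5.67, adjusted p = 4.59e-10). Clec12b, an inhibitory lectin, was higher (1.80, adjusted p = 0.0176). In the retina 1 of 23 was called lower (background 1.08%), Mrc1 (-3.68, adjusted p = 0.000349).

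Of 15 genes of lectin signalling, 12 were called lower in the choroid (median -1.28, background 5.06% lower) and 7 in the retina (background 1.08% lower). The adaptor Fcer1g, which pairs with Clec4n and Clec4d, fell by 2.17 on the log2 scale in the choroid (adjusted p = 9.44e-10) and by 3.72 in the retina (adjusted p = 2.45e-05). Tyrobp, the adaptor of Clec5a, had a log2 difference of -1.69 in the choroid (adjusted p = 1.46e-07) and -6.12 in the retina (adjusted p = 1.4e-11). The kinase Syk was -1.06 (adjusted p = 1.6e-08) and -2.25 (adjusted p = 0.0394). Card9, which links Syk to NF-κB, was -1.77 in the choroid (adjusted p = 5.47e-05) and -0.83 in the retina, where it was not called (adjusted p = 0.801). Ptpn6, a phosphatase recruited by inhibitory receptors, was -1.74 in the choroid (adjusted p = 4.41e-10). Of 12 genes listed as outputs of lectin signalling, most of them for cytokines and chemokines, 6 were called lower in the choroid (background 5.06%), among them Ccl4 (-2.66, adjusted p = 8.54e-09), Ccl3 (-2.45, adjusted p = 2.13e-07), Tnf (-1.58, adjusted p = 0.00293) and Il10 (-1.80, adjusted p = 0.00647). In the retina 2 of 8 were called lower (background 1.08%), Ccl3 (-2.36, adjusted p = 0.0113) and Tnf (-1.40, adjusted p = 0.0384). All these genes are also used outside lectin signalling.

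Within groups, the lectins tended to vary together across choroids. After each group's mean was removed, Pearson's r over the 20 choroids was above 0 in 35 of 36 pairs of lectins, with a median of 0.412 and a range from -0.032 to 0.817, the highest being Clec4d with Clec5a. These values share library and scaling, have no value for pairs of other genes beside them, and are given as a description. Among 17597 genes, the nearest pattern to Clec4a1 was that of Mrc1 (r = 0.907), followed by Ccl6 (0.872) and Fcgr2b (0.856). That of Clec4a3 was nearest to Igsf6 (0.879), Ms4a6b (0.853) and Apex1 (0.841), that of Clec4d to Vav1 (0.847), Fcer1g (0.835) and Dtymk (0.827), and that of Clec5a to Copz1 (0.839), Lgals3 (0.82) and Fcgr1 (0.804). Clec7a was nearest to Clec2i (0.88), Agpat4 (0.863) and Arpc4 (0.848), and Clec12a to Adamts12 (0.813), Lacc1 (0.762) and Irf5 (0.76). Clec10a was nearest to A630001G21Rik (0.772), Rab39 (0.759) and Fyb1 (0.756), Clec4n to Ccdc138 (0.786), Ccl3 (0.772) and Wdr12 (0.757), and Clec4a2 to Mrpl12 (0.839), Lrrfip2 (0.826) and Lrrc25 (0.824). In the retina only Clec7a had a mean high enough for this comparison, and Pi4k2b (0.834), Gm13241 (0.807) and Msr1 (0.77) were nearest to it among 17180 genes.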

How the data were processed

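RNA of the choroid and retina of 20 mice was sequenced by the authors as single reads from a stranded poly-A library, quantified with Salmon 1.10.1 after FastQC 0.11.5 (versions from the submitters' processing notes), and divided by DESeq2 1.36.0 size factors. The deposited values are this signal, normalized counts that are not whole numbers (50.05 to 77.79% of low values per library lay within 0.1 of a whole read), so no count test was run. Size factors recomputed from the values were 1.0082 in each library, so both tissues had been scaled together. The estimated depth was 21720522 to 28174821 reads for choroids and 20940403 to 30421581 for retinas.

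Genes with a mean of at least 1 in a tissue were tested with limma 3.58.1 (R 4.3.3, trend) on log2(normalized count + 1), with 4 groups in 1 fit per tissue and 8 groups in 1 fit for comparisons between tissues, and Benjamini-Hochberg adjustment over all genes. The study's covariates (sex, estimated neuronal share) were not used in these fits. Scores computed from marker genes replaced them among the alternatives. The scripts were tested on simulated data. Symbols and positions came from GENCODE mouse release 39 (53700 of 54307 genes matched), promoters from RefSeq. Levels per kb used exon length. Of 167 listed genes 166 were matched. Tissues of a mouse were paired by the mouse number in the library names. Deviations of the 2 tissues from their group means correlated at a median r of 0.126 (-0.158 to 0.289, 20 mice, 18160 genes), and the pairing rests on the shared animal.

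The 9 lectins were all described. From each other list, the 4 called genes with the smallest p in a comparison could be named, and Syk, Card9, Tyrobp and Clec12b were named after their values were seen. The 3 genes with the highest r were listed as nearest patterns. The members and lists were chosen with earlier results of these data known. Alternatives were pseudocounts of 0.5 and 5, no filter or a mean of at least 10, TMM and upper quartile scaling, robust empirical Bayes, score covariates, only the groups compared, the mouse as a block, each mouse left out in turn, and, added after the values were seen, mice 1, 5 and 6 left out. Intervals are at 95% and, like the value of 3 reads, say nothing about molecules, since the reads carried no molecular identifiers.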

Additional observations from a re-analysis of the deposited data

Results flagged for a closer look

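Of 72 groups of 5 retinas or choroids, 1 per lectin, tissue, genotype and diet, 10 had all values at 0. In the other 62 the gap between an extreme mouse and its nearest neighbour was divided by the range of the group. It passed Dixon's limit of 0.71 in 5 groups, against about 3.1 at a rate of 1 in 20. That rate is for independent normal values, and these were untransformed counts, so 3.1 gives no valid expectation by chance. All 5 were retinas with few reads per gene. Mouse 6 of the Tgfbr2ΔEC – PLX retinas was high for Clec4a1 (33.9 normalized counts, gap 0.903 of the range), Clec12a (24.9, gap 0.803) and Clec4d (7.65, gap 0.774). Mouse 4 of the control – PLX retinas was high for Clec4n (19.9, gap 0.752), and mouse 11 of the control + PLX retinas was the one with any Clec5a (8.58, gap 1.0). The effect of PLX differed between choroid and retina for Clec7a (3.49 on the log2 scale, adjusted p = 1.13e-06, limma) and Clec10a (-3.35, adjusted p = 0.00218), as tested by the interaction of tissue and diet.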

How the results depend on the processing

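Counts of called lectins stayed within 1.5 times the main count in 147 of 155 cases under other settings and in all 300 with 1 mouse left out. In the retina, a mean of at least 10 left 1 lectin to test, Clec7a, and it was called (1 with both genotypes, 1 in control mice, 1 in Tgfbr2ΔEC mice). In control retinas 3 were called with a pseudocount of 5 and 2 without mice 1, 5 and 6, and in Tgfbr2ΔEC retinas 1 with a pseudocount of 5 and 1 with only the groups compared. For the tissue by diet comparison 4 were called with a pseudocount of 5, Clec4a1 (-1.67, adjusted p = 0.027) and Clec4a2 being added, and 3 with a pseudocount of 0.5, Clec4a3 being added (2.57, adjusted p = 0.00229). Clec7a was 1.84 (adjusted p = 0.000836) and Clec10a -3.16 (adjusted p = 2.54e-05) with a pseudocount of 5. A higher pseudocount shrinks effects in the retina, where levels are low. Without mice 1, 5 and 6, Clec4a1 was -2.35 (adjusted p = 0.00941).

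Single genes that turned direction were uncalled in the main comparison. With a pseudocount of 5, the tissue by diet difference was -1.22 for Clec4a2 (adjusted p = 0.0202), -0.0625 for Clec4a3, -0.67 for Clec4n, -0.70 for Clec4d and -0.64 for Clec5a, Clec10a with PLX in control retinas was -0.0012, and Clec4a3 was 0.0039 between genotypes in the retina without PLX and -0.0039 for genotype by diet. Clec12a was 0.30 for tissue by diet with a pseudocount of 0.5, and Clec4a3 was 0.0218 between genotypes with the neural retina score. Without mice 1, 5 and 6, Clec4a3 was 0.35 between genotypes and -0.35 for genotype by diet, and Clec4a2 was -0.17 for tissue by diet. With 1 mouse left out, Clec10a with PLX in the retina ranged from -0.0172 to 0.47 (control mice -0.32 to 0.58, Tgfbr2ΔEC mice -0.0905 to 0.68), Clec4a3 from -0.62 to 0.47 between genotypes and from -0.47 to 0.62 for genotype by diet, and tissue by diet from -0.11 to 0.36 for Clec4a2 and from -0.72 to 0.0344 for Clec12a. Clec12a in the retina was called without mouse 4 (-2.34, adjusted p = 0.0351), Clec4a3 for tissue by diet without mouse 9 (2.01, adjusted p = 0.00371), Clec4d in control choroids without mouse 19 (adjusted p = 0.0414), and Clec7a in Tgfbr2ΔEC choroids was not with both scores as covariates (-1.14, adjusted p = 0.0507). The cause was not tested. With the mouse as a replicate block, 2 lectins were called for tissue by diet, and no call changed. Among all genes, the genotype comparison in choroids without PLX called 1 gene, but 303 with only the groups compared and 411 without mouse 15, and tissue by diet called 332, but 620 without mouse 15. The median log2 difference of all genes between tissues was -0.166 without PLX and -0.149 with PLX under upper quartile scaling, against -0.01 and -0.011 as deposited, and no lectin changed direction. Low levels of these genes limit the retina, where a few reads make a value.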
